A study of Mus musculus with 32 samples.

Results

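The genes described here are 35 genes of the oligodendrocyte progenitor and neural stem state, taken from a list of gene names. The list was drawn up with earlier results of these data known. They are 35 of the 23337 genes in the deposited count table, and all 35 had counts. By role they comprise 7 transcription factors of the oligodendrocyte lineage, 14 genes of the progenitor surface, adhesion and extracellular matrix, a kinase and an enzyme (Fyn and Lpo), 8 genes of neural stem cells and radial glia, and 4 genes of immature neurons. Their levels were compared across 6 groups of RNA-seq libraries from mouse gliomas, first in the sorted tumour cells (TC) and then in the sorted tumour-associated macrophages (TAM).

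The gliomas grew in XFM mice given an intracranial injection of DF-1:PDGFB cells, which carry the growth factor PDGFB, at 5 to 6 weeks of age. Mice entered treatment at a tumour volume of 20 to 40 mm3 and received BLZ945, an inhibitor of the macrophage growth factor receptor CSF-1R, or Vehicle every day until they showed symptoms or reached 26 weeks of age. Both sorts came from papain-dissociated tumour of perfused mice: TC by PDGFRA on the surface, TAM as Cd11b-positive, Gr.1-negative cells. Cells went directly into TRIzol, and the SMART-Seq libraries were read as 2x50 bases. The Rebound group (5 TC and 5 TAM libraries) and the Endpoint group (6 and 6, labelled dormant) are described by the series as tumours after BLZ945, and the Vehicle group (5 and 5) is their control. The labels give BLZ945 as the agent of all 32 libraries, Vehicle included, and do not define Rebound further. Every mouse gave at most 1 library per sort, so replicates are different mice: 17 mice in all, of which 15 gave both sorts. Pdgfra, the gene of the TC gate, is itself a progenitor gene, so the gate bears on every level given here and the level of Pdgfra is not a finding.

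Oligodendrocyte progenitors divide throughout life, carry PDGFRA and the proteoglycan NG2 (gene Cspg4), and are kept in their lineage by Olig2, Olig1, Sox10 and Nkx2-2. Gpr17 marks progenitors that have begun to differentiate. Neural stem cells and radial glia are known for Sox2, Sox9, nestin and Fabp7, and immature neurons for Sox11, Sox4 and doublecortin. Gliomas driven by PDGFB commonly resemble oligodendrocyte progenitors.

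The groups differed in depth and in the RNA of other cell types. Total counts, in M, were 10.5 to 16.5 in Rebound TC, 4.18 to 14.0 in Endpoint TC and 13.1 to 23.0 in Vehicle TC libraries, and 15.4 to 19.6, 9.54 to 15.8 and 25.6 to 30.4 in Rebound, Endpoint and Vehicle TAM libraries. Every count is an even number in the 22 Rebound and Endpoint libraries, against 59.4 to 66.3% of counts, 0 included, in Vehicle libraries. For the 22, the sources used here do not say whether a count stands for a read or a read pair. Their totals therefore cannot be set against those of Vehicle libraries as fragments. This difference in counts coincides with BLZ945 against Vehicle, so in every comparison with Vehicle the 2 cannot be told apart. The summed level of 10 choroid plexus and ependyma markers was 2.78 to 1165 CPM (counts per M of the library's total after TMM scaling) in Rebound TC, 6438 to 218817 CPM in Endpoint TC and 10.9 to 623 CPM in Vehicle TC libraries. The 10 myelin markers summed to 1274 to 19001, 23033 to 34302 and 3359 to 18393 CPM in these groups, the 12 myeloid markers to 103 to 2333, 2161 to 12951 and 307 to 2557 CPM, and the 8 T and NK markers to 5.66 to 3610, 11.3 to 6137 and 6.94 to 13.9 CPM. The 8 proliferation genes summed to 507 to 2457, 97.4 to 925 and 1136 to 2066 CPM. Hba-a1 and Hba-a2, 2 of the 4 erythroid markers, were at 0 in all TC and TAM libraries, which does not show that erythroid RNA was absent. The 4 erythroid markers summed to 4.36 to 44.3 CPM in Rebound TC, 117 to 932 CPM in Endpoint TC and 4.85 to 552 CPM in Vehicle TC libraries. In TC libraries no marker of the choroid, myelin, myeloid or T and NK lists was at 0 throughout a group. The part of these cells in the results below was not tested, and in bulk samples fewer cells of a type and less RNA per cell cannot be told apart.

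Several libraries stand apart from their group in the 35 genes. The Endpoint TC library of mouse 49843 had the highest Endpoint level of 32 of the 35 genes, the exceptions being Sox9, Pou3f1 and Lpo, and was over 2 times the next library in 27. The 35 genes summed to 5383 CPM in it, against 983 to 1291 CPM in the other Endpoint TC libraries. It also had the lowest choroid sum of its group, 6438 CPM, and the highest myeloid and proliferation sums, 12951 and 925 CPM. Its T and NK sum was 29.2 CPM and that of mouse 49845 was 11.3 CPM, against 4298 to 6137 CPM in the rest of Endpoint TC. This library had the fewest counts of all, 4.18 M. The ribosomal RNA precursor gene Rn45s held 16.9% of its counts, against 6.35 to 7.80% in the other Endpoint TC libraries. The part of depth and of Rn45s in its values was not tested. The Rebound TC library of mouse 49827 was lowest of its group in 23 of 35 genes and highest in T and NK markers (3610 CPM) and myelin markers (19001 CPM). The Vehicle TC library of mouse 54363 was lowest in 21 genes, with 18393 CPM of myelin markers and 19812 CPM of astrocyte markers. Many of the Endpoint TC values below rest in part on the first of these: without it the log2 fold change of 21 of the 35 genes moved by more than 1.5 times in fold, both against Vehicle and against Rebound. That library was singled out by its high levels of these same genes, so leaving it out was bound to deepen most falls. Values without it, here and below, show how far a result depends on it and are no independent support.

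**Figure D1:**
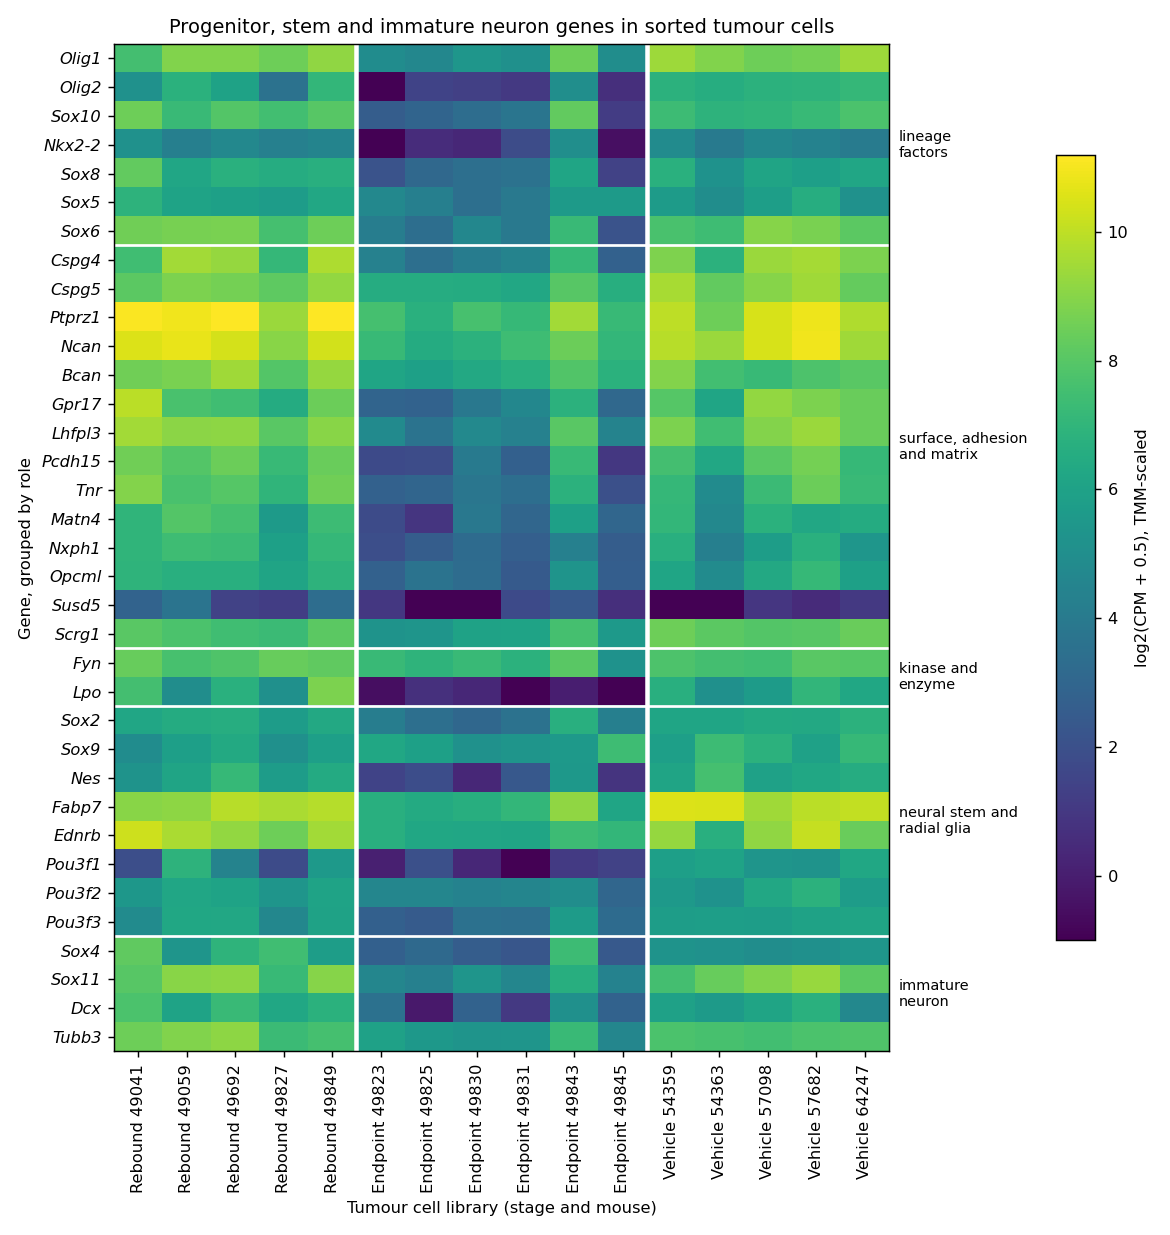
Level of the 35 genes (rows, grouped by role) in each of the 16 TC libraries (columns: Rebound, Endpoint, Vehicle), drawn as a colour scale of log2(CPM + 0.5). The Endpoint columns are low for most rows, except the column of mouse 49843, which summed to 5383 CPM over the 35 genes.

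Compared between genes as CPM per kilobase of merged exons, the levels in Vehicle tumour cells were widely spread. Fabp7, a fatty acid binding protein of radial glia, led with 904 ± 260 CPM per kb (SD, n = 5), followed by Scrg1, a gene of glial progenitors, with 426 ± 75.5 CPM per kb. Olig1 stood at 238 ± 69.9 CPM per kb and Olig2, its partner among the basic helix-loop-helix factors, at 45.6 ± 6.43 CPM per kb. The lowest was Susd5, which codes for a membrane protein with a sushi domain, at 0.191 ± 0.184 CPM per kb.

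The promoters of 4 members are shown, a single gene from each of the main roles whose levels are described below, so that the motif shares given next can be read beside the letters they count. The sequences are from RefSeq (GRCm38.p6), run along the gene's strand and end before its transcription start. Capitals mark an exact match, on either strand, to 1 of 3 motifs that were searched: CAGCTG, an E-box of the class bound by basic helix-loop-helix factors such as Olig2; ACAAT, the core bound by SOX factors; and ATGCAAAT, the octamer bound by POU factors. The lineage factor Sox8 (chr17:25570687-25570936, minus strand) and the surface phosphatase gene Ptprz1 (chr6:22875252-22875501, plus strand) hold none of the 3. The window of Nes (chr3:87970843-87971077, plus strand) holds a single ACAAT and that of Sox11 (chr12:27342719-27342968, minus strand) a single CAGCTG.
Sox8: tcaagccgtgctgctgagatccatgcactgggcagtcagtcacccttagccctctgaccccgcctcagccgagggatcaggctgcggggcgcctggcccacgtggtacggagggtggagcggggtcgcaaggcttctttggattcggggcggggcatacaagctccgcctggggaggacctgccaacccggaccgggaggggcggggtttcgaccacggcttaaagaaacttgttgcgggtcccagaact
Ptprz1: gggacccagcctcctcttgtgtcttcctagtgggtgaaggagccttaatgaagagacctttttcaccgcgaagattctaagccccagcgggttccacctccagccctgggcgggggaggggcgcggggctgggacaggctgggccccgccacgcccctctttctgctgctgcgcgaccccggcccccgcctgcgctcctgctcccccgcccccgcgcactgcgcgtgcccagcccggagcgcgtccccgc
Nes: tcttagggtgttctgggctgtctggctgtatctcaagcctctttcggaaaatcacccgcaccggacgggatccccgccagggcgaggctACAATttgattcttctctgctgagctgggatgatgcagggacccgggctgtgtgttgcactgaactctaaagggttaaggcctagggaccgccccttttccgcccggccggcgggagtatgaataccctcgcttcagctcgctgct
Sox11: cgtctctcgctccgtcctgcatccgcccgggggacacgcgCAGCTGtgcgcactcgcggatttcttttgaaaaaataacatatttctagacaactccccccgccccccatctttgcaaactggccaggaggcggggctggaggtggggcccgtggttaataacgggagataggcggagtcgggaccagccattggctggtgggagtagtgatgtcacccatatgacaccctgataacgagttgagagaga

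RefSeq promoter windows of 28 of the 35 members were matched, and the motifs were counted in the first 250 bases of each. For Nes these run a little past the start, and the part past it is not printed. CAGCTG, which reads the same on both strands, lay in windows of 5 of the 28 (Lhfpl3, Ncan, Sox11, Sox4 and Sox6), or 14.3% of their 35 windows, against 13% of all 32851 windows of the same length. ACAAT lay in windows of 10 members, or 34.3% of their windows, against 27.7% of all windows. ATGCAAAT lay in none, against 1.6% of all. None of the 3 motifs lies inside another. These are matches of letters, not binding sites.

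Endpoint TC libraries had lower levels of most of the 35 genes than Vehicle TC libraries. As given above, Endpoint TC libraries also held RNA of other cell types, whose part was not tested. By edgeR's quasi-likelihood test with Benjamini-Hochberg adjustment over all 14985 genes tested, 27 of the 35 fell and none rose at an adjusted p under 0.05, against 14.8% of all genes called lower and 14% called higher. The median log2 fold change of the 35 was -2.49, against 0.03 over all genes tested. The 35 were chosen with earlier results of these data known. Their excess over all genes, here and below, is therefore no independent support. In 14 of the 35 the groups did not overlap, all of them lower in Endpoint, against 7.43% of all genes lower and 6.66% higher. Of the roles, 3 of 7 lineage factors fell, 13 of 14 surface and matrix genes, 7 of 8 stem genes, 3 of 4 immature neuron genes, and Lpo but not Fyn. Without mouse 49843 the count was 33 of 35, the exceptions being Sox9 and Susd5, and the median was -3.48. Since that library was singled out by these genes, this is no independent support for the falls.

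Olig2, the factor that specifies the oligodendrocyte lineage (chromosome 16, 91225457 to 91228677, plus strand of GRCm38, as are the coordinates below), was at 0 CPM in the lowest, 1.75 CPM in the median and 31.8 CPM in the highest of the 6 Endpoint libraries, against 112, 94.7, 113, 117 and 140.0 CPM in Vehicle libraries. The groups did not overlap: even the library of mouse 49843, the highest of Endpoint, was below the lowest Vehicle library. The log2 fold change was -4.24 (SE 1.05, edgeR adjusted p = 0.00927). Olig1 fell by 2.58 on the log2 scale (SE 0.655, edgeR adjusted p = 0.0101), with means of 86.4 ± 133 CPM in Endpoint (n = 6) and 515 ± 151 CPM in Vehicle (n = 5). Sox6, which holds progenitors back from differentiating, fell by 3.09 (SE 0.729, edgeR adjusted p = 0.00697). Without mouse 49843 the log2 fold changes of Olig2, Olig1 and Sox6 were -6.42, -3.999 and -4.49.

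Sox10, the factor present through the whole oligodendrocyte lineage (chromosome 15, 79154908 to 79165240, minus strand), was at 1.71 CPM in the lowest, 8.36 CPM in the median and 311 CPM in the highest Endpoint library, against 165, 118, 126, 146 and 213 CPM in Vehicle libraries. The groups overlapped through mouse 49843 alone, whose Sox10 was above every Vehicle library, while the other 5 Endpoint libraries were below every Vehicle library. The test did not call it (log2 fold change -1.42 with SE 0.990, edgeR adjusted p = 0.302), and without that library it did (log2 fold change -4.38, edgeR adjusted p = 1.05e-05). Nkx2-2, which acts with Olig2, Sox8, a relative of Sox10, and Sox5, a partner of Sox6, were also not called, with log2 fold changes of -1.83, -1.95 and -0.95 and edgeR adjusted p-values of 0.196, 0.0507 and 0.0887. Without mouse 49843 these were -4.45, -3.25 and -1.18, all called.

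**Figure D2:**
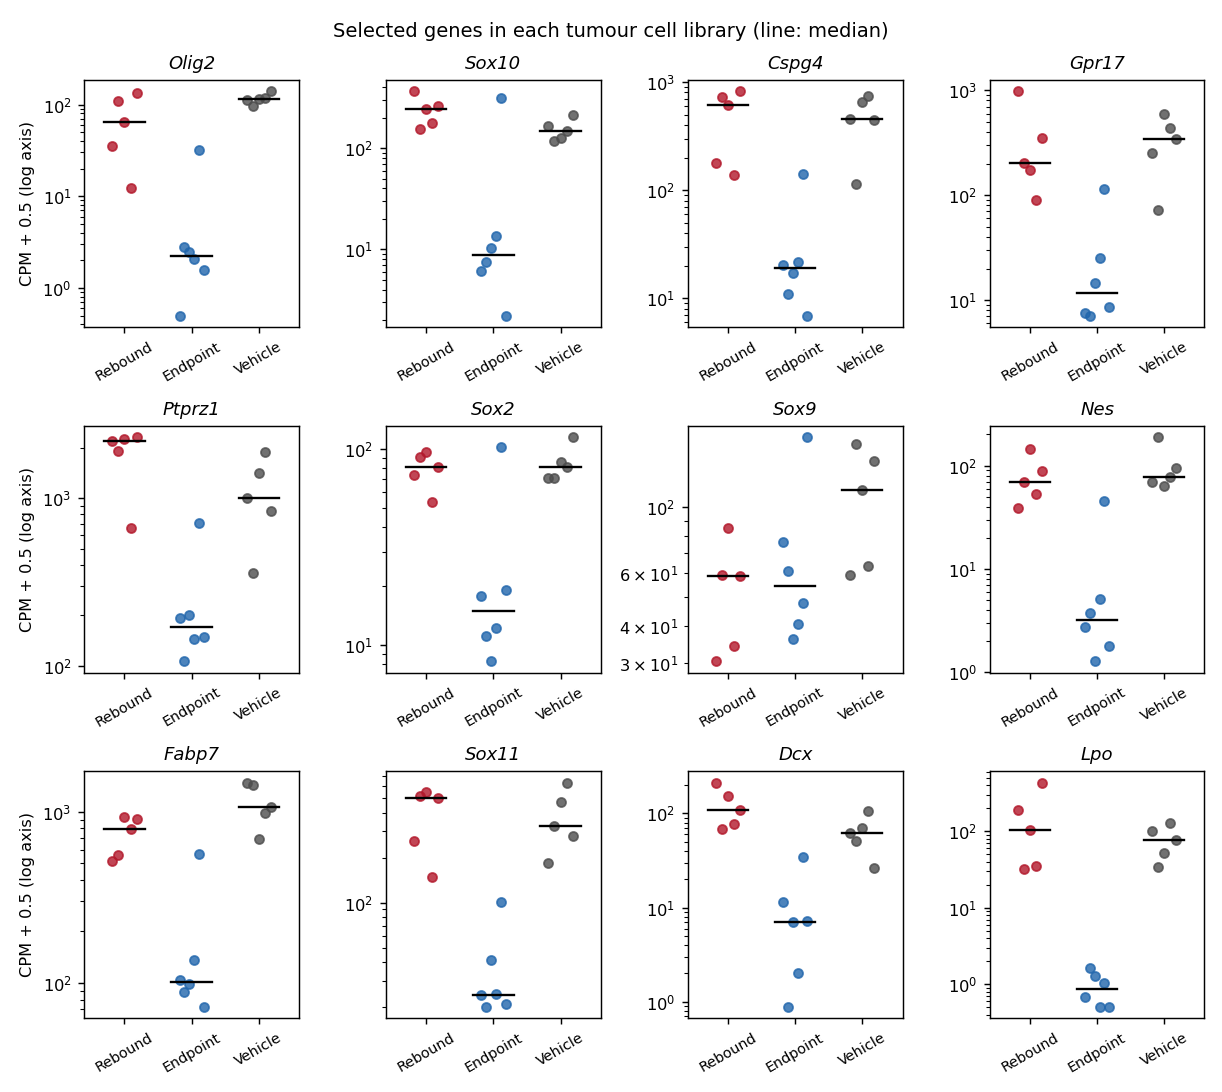
CPM + 0.5 on a log axis for 12 of the 35 genes in TC libraries, 1 panel per gene, with Rebound left, Endpoint in the middle and Vehicle right; points are libraries and lines are group medians. Olig2, Nes, Sox11 and Lpo show Endpoint points below all Vehicle points, whereas the groups overlap for Sox9.

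Among the surface genes, Cspg4, which codes for the NG2 proteoglycan (chromosome 9, 56865033 to 56899870, plus strand), was at 6.42 CPM in the lowest, 18.4 CPM in the median and 141 CPM in the highest Endpoint library, against 451, 113, 647, 734 and 446 CPM in Vehicle libraries. The groups overlapped because Endpoint mouse 49843 was above Vehicle mouse 54363. The log2 fold change was -3.74 (SE 0.797, edgeR adjusted p = 0.00406). Gpr17, the receptor of differentiating progenitors, was at 6.63, 11.1 and 115 CPM in the lowest, median and highest Endpoint library, against 254, 71.4, 591, 439 and 342 CPM in Vehicle libraries. The same pair of libraries overlapped, and the log2 fold change was -3.56 (SE 0.861, edgeR adjusted p = 0.00832). Without mouse 49843 the log2 fold changes of Cspg4 and Gpr17 were -4.996 and -4.81. Gpr17 shares 188 of its 5195 exon bases with Lims2 on the opposite strand, and reads in these cannot be told apart, because the libraries are counted without a stated strand.

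Ptprz1, a receptor phosphatase of progenitors and radial glia, was at 105, 169.6 and 714 CPM in the lowest, median and highest Endpoint library, against 1003, 359, 1418, 1876 and 839 CPM in Vehicle libraries. Only the libraries of mouse 49843 (Endpoint) and mouse 54363 (Vehicle) overlapped, and the log2 fold change was -2.13 (SE 0.507, edgeR adjusted p = 0.00681). The chondroitin sulphate proteoglycans of the brain matrix fell by different amounts: neurocan (Ncan) by 2.77, Cspg5 by 2.11 and brevican (Bcan) by 1.25 on the log2 scale, with edgeR adjusted p-values of 0.00055, 0.000988 and 0.0227. Nxph1, a ligand of neurexins, fell by 3.02 (edgeR adjusted p = 0.000916), with 8.14 ± 5.90 CPM in Endpoint and 64.7 ± 38.6 CPM in Vehicle. The cadherin Pcdh15, the progenitor gene Lhfpl3, the matrix protein tenascin-R (Tnr), the cell adhesion molecule Opcml, the matrilin Matn4 and Scrg1 fell by 2.91, 2.74, 2.71, 2.59, 2.49 and 2.00. Without mouse 49843 their log2 fold changes were -5.24, -4.27, -4.36, -3.32, -3.71 and -2.53, that of Ptprz1 was -2.80 and that of Nxph1 -3.48. Susd5 was the sole member above 0, with a log2 fold change of 1.06 (SE 1.21, edgeR adjusted p = 0.541) on 1.69 ± 1.83 CPM in Endpoint and 0.779 ± 0.751 CPM in Vehicle.

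Lpo, the gene of the secreted enzyme lactoperoxidase (chromosome 11, 87806428 to 87828289, minus strand), had the largest fall of the 35. It was at 0, 0.358 and 1.14 CPM in the lowest, median and highest Endpoint library, against 102, 33.8, 51.5, 129 and 76.5 CPM in Vehicle libraries. The groups were far apart in every library, mouse 49843 included. The log2 fold change was -7.48 (SE 0.929, edgeR adjusted p = 0.000337). Fyn, a Src family kinase that acts in oligodendrocyte differentiation, averaged 141 ± 76.0 CPM in Endpoint and 218 ± 39.1 CPM in Vehicle and was not called (log2 fold change -0.63 with SE 0.333, edgeR adjusted p = 0.166), though it was without mouse 49843 (log2 fold change -0.92, edgeR adjusted p = 0.0293).

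Of the 8 stem and radial glia genes 7 fell. Nes, which codes for the intermediate filament nestin (chromosome 3, 87971078 to 87980451, plus strand; its promoter is printed above), was at 0.778, 2.72 and 44.5 CPM in the lowest, median and highest Endpoint library, against 68.2, 189.6, 62.9, 76.4 and 94.0 CPM in Vehicle libraries. The groups did not overlap, and the log2 fold change was -3.43 (SE 0.868, edgeR adjusted p = 0.0102). Sox2, which maintains stem cells and is also present in progenitors, was at 7.78, 14.5 and 102 CPM in the lowest, median and highest Endpoint library, against 70.7, 70.2, 85.0, 80.2 and 115 CPM in Vehicle libraries. Mouse 49843 lay within the Vehicle range and the other 5 Endpoint libraries below it, with a log2 fold change of -1.60 (SE 0.532, edgeR adjusted p = 0.0335); this call was lost in 9 of the alternative settings tried. Without mouse 49843 the log2 fold changes of Nes and Sox2 were -5.32 and -2.67.

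Fabp7 was at 71.7, 101 and 567 CPM in the lowest, median and highest Endpoint library, against 1478, 1423, 695, 983 and 1068 CPM in Vehicle libraries. All Endpoint libraries were below all Vehicle libraries, with a log2 fold change of -2.68 (SE 0.478, edgeR adjusted p = 0.00144). Pou3f1, a POU factor of neural and glial precursors, was at 0, 1.18 and 3.41 CPM in the lowest, median and highest Endpoint library, against 58.5, 66.5, 41.1, 38.0 and 74.9 CPM in Vehicle libraries. Here mouse 49843 was not the highest of its group, and the log2 fold change was -5.26 (SE 0.960, edgeR adjusted p = 0.00179). That was the next largest fall after Lpo over all libraries, but without mouse 49843, at -5.28, it came after Olig2 and Nes as well. Fabp7 was then at -3.51. The related Pou3f2 and Pou3f3 fell by 1.61 and 1.96, and the endothelin receptor gene Ednrb by 2.40 (edgeR adjusted p = 0.00193).

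Sox9, the factor of stem cells and astrocytes (chromosome 11, 112782224 to 112787760, plus strand), was the stem gene that the test did not call. It was at 35.8, 53.8 and 171 CPM in the lowest, median and highest Endpoint library, against 58.7, 162, 113, 63.1 and 142 CPM in Vehicle libraries. The groups overlapped widely, and the highest library of all was Endpoint mouse 49845, which also had the highest choroid sum, 218817 CPM. The log2 fold change was -0.59 (SE 0.412, 95% interval -1.39 to 0.22, edgeR adjusted p = 0.303), and without mouse 49843 it was -0.49 (edgeR adjusted p = 0.412).

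Of the immature neuron genes, Sox11 (its promoter is printed above) was at 19.5, 23.8 and 101 CPM in the lowest, median and highest Endpoint library, against 185, 324, 471, 634 and 277 CPM in Vehicle libraries. The groups did not overlap, and the log2 fold change was -3.31 (SE 0.493, edgeR adjusted p = 0.000645). Dcx, which codes for the microtubule protein doublecortin, was at 0.379, 6.62 and 33.9 CPM in the lowest, median and highest Endpoint library, against 61.6, 50.2, 70.0, 105 and 25.7 CPM in Vehicle libraries. Only Endpoint mouse 49843 and Vehicle mouse 64247 overlapped, with a log2 fold change of -2.67 (SE 0.741, edgeR adjusted p = 0.0158). Tubb3, a neuronal tubulin, fell by 1.77 (edgeR adjusted p = 0.00624). Sox4, a close relative of Sox11, was not called over all libraries (log2 fold change -0.21, edgeR adjusted p = 0.882), but this value rests on mouse 49843, which had 161 CPM against a group median of 5.78 CPM, and without it the log2 fold change was -2.64 (edgeR adjusted p = 0.000553). Sox11 and Dcx were then at -3.88 and -3.56.

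Beside these falls, the same test called 7 of 9 tested choroid plexus and ependyma markers, 7 of 8 T and NK markers and 3 of 4 B cell markers higher in Endpoint than in Vehicle TC libraries. Also higher were 3 of 8 pericyte and fibroblast and 3 of 10 astrocyte markers. The 2 of 12 myeloid markers called higher are near the 14% of all genes. Of the proliferation genes 7 of 8 were lower. Relative to the Vehicle mean, the median of the 35 genes was at 64.1% in mouse 49843 and at 9.03% over the other 5 Endpoint libraries.

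**Figure D3:**
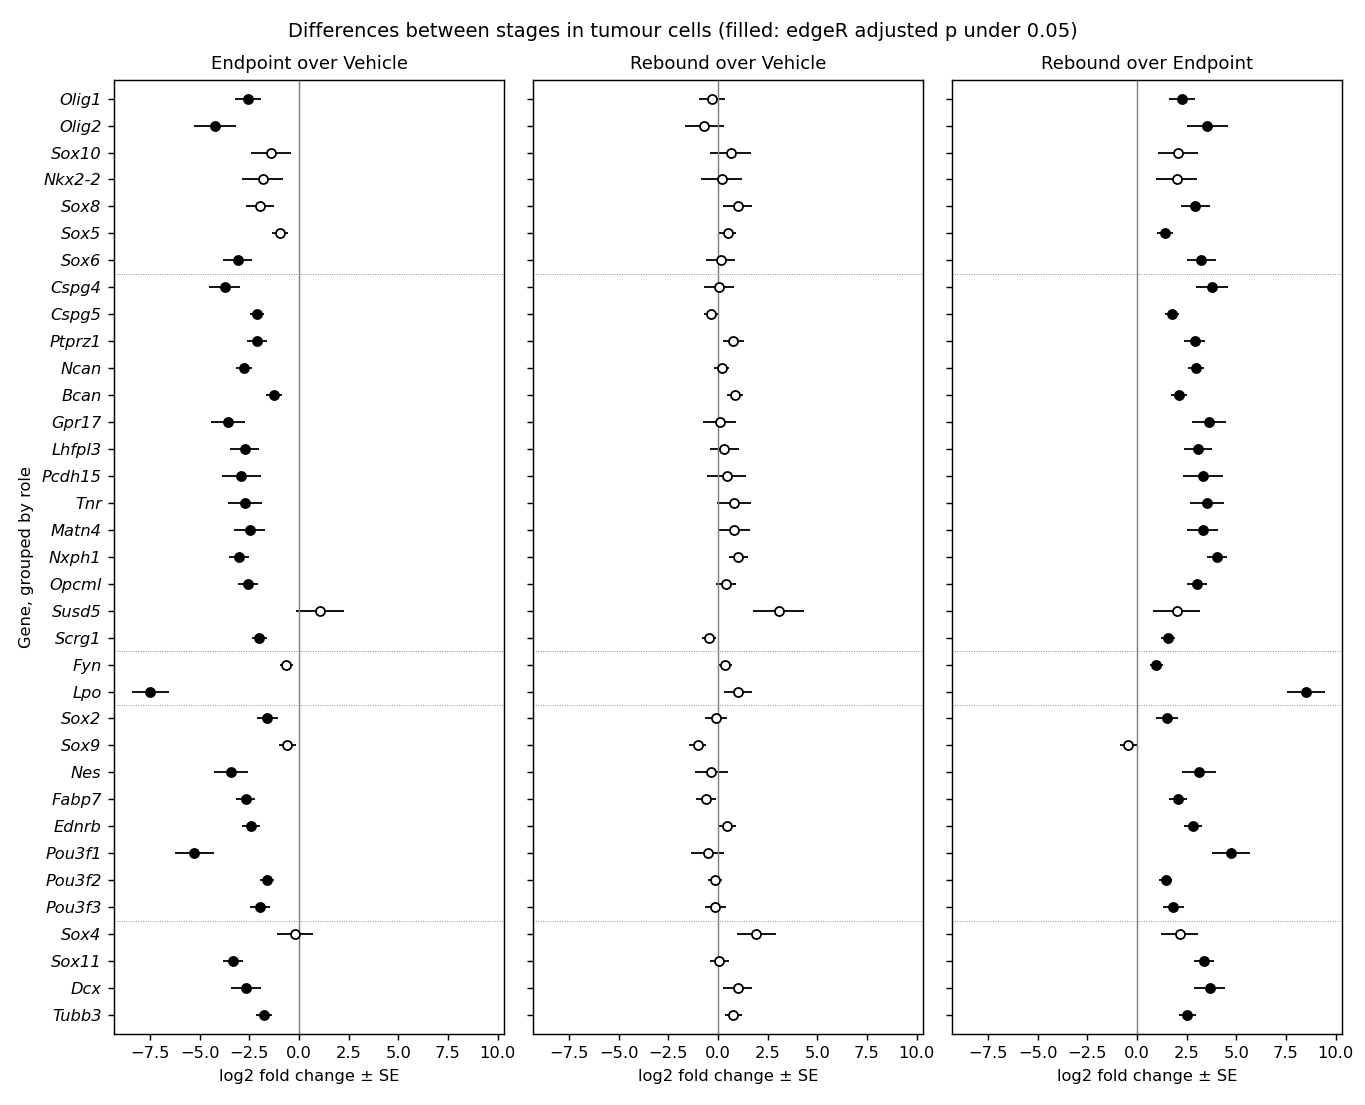
Log2 fold change of each of the 35 genes (rows, by role) in TC libraries, with its standard error as a bar, for Endpoint over Vehicle, Rebound over Vehicle and Rebound over Endpoint; filled points have an edgeR adjusted p under 0.05. In the first panel 27 points are filled, all below 0, in the second none, and in the third 30, all above 0.

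Other genes of these states, listed apart from the 35, moved by list. Of 20 further progenitor genes 12 fell and 1, Cnksr3, rose by 1.53, with a list median of -2.28 on the log2 scale. Among those that fell were Cacng4, which codes for an auxiliary protein of AMPA receptors, by 3.66 and Epn2, an endocytic adaptor, by 3.48. Of 20 further stem genes 3 fell (Notch1, Vim and Nfia) and 3 rose (Sox1 by 3.29, Id1 by 2.52 and Id3 by 1.48), with a list median of 0.15; those shares are near the background of 14.8% lower and 14% higher. Id1, an inhibitor of differentiation, averaged 81.8 ± 43.5 CPM in Endpoint and 14.3 ± 7.44 CPM in Vehicle. Of 17 tested genes of immature neurons 6 fell and 1 rose, the interneuron factor Dlx2, by 5.34. The gate gene Pdgfra itself averaged 172 ± 187 CPM in Endpoint and 1989 ± 1269 CPM in Vehicle.

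Between Rebound and Vehicle tumour cells no member passed the test: by edgeR's quasi-likelihood test 0 of 35 were called at an adjusted p under 0.05, against 0.04% of all genes called higher and 0.0334% lower. At an unadjusted p under 0.05 there were 2 higher (Bcan and Susd5) and 1 lower (Sox9). DESeq2, which called 601 genes, called 0 of the 32 members it gave an adjusted p. The log2 fold change was above 0 in 24 members and below 0 in 11, with a median of 0.32, against 0.04 over all genes. A p that misses the threshold does not show equal levels, and the intervals were wide.

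Olig2 was at 34.99, 109, 64.4, 11.8 and 134 CPM in the Rebound libraries of mice 49041, 49059, 49692, 49827 and 49849, against the Vehicle values above. Mouse 49827 was lowest, and 2 of the 5 libraries lay within the Vehicle range; the 95% interval of the log2 fold change ran from -2.62 to 1.22. Sox10 was at 366, 153, 242, 178 and 258 CPM in the same order, with 3 libraries above the highest Vehicle library (log2 fold change 0.64, 95% interval -1.38 to 2.66, edgeR adjusted p = 0.820). Cspg4 was at 177, 719, 612, 138 and 825 CPM (log2 fold change 0.05, 95% interval -1.46 to 1.55).

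Gpr17 was at 984, 202, 175, 88.7 and 349 CPM in Rebound libraries, and mouse 49041 alone was above the Vehicle range (log2 fold change 0.08, 95% interval -1.55 to 1.72). Ptprz1 was at 2184, 1928, 2255, 661 and 2329 CPM, with all but mouse 49827 above every Vehicle library (log2 fold change 0.77, 95% interval -0.25 to 1.79, edgeR adjusted p = 0.520). Bcan averaged 467 ± 184 CPM in Rebound and 260.03 ± 135 CPM in Vehicle (log2 fold change 0.85, 95% interval 0.06 to 1.63, edgeR adjusted p = 0.334). Susd5 was the sole member whose groups did not overlap, at 1.84 to 12.4 CPM in Rebound and 0 to 1.56 CPM in Vehicle (log2 fold change 3.05 with SE 1.31, edgeR adjusted p = 0.287); 1.84% of all genes were above without overlap.

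Sox2 was at 73.0, 90.8, 96.1, 53.4 and 80.6 CPM and Nes at 38.3, 69.6, 143, 52.3 and 87.5 CPM in Rebound libraries, overlapping the Vehicle values (95% intervals of the log2 fold change -1.17 to 0.98 and -1.97 to 1.31). Fabp7 was at 514, 559.9, 936, 797 and 901 CPM, with 2 libraries below the lowest Vehicle library (log2 fold change -0.61, edgeR adjusted p = 0.594). Sox9 was at 29.95, 58.7, 84.7, 33.8 and 58.3 CPM, with 3 libraries below the lowest Vehicle library and that of mouse 49059 level with it (log2 fold change -1.02 with SE 0.435, edgeR adjusted p = 0.283). Pou3f1 differed most within Rebound, from 2.94 CPM in mouse 49827 to 119 CPM in mouse 49059.

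Sox11 was at 257, 514, 549, 149 and 498 CPM and Dcx at 212, 67.2, 152, 76.9 and 108 CPM in Rebound libraries, with log2 fold changes against Vehicle of 0.06 and 0.98 (edgeR adjusted p = 0.976 and 0.569). Both overlapped the Vehicle range. Sox4 averaged 138 ± 105 CPM in Rebound and 36.2 ± 4.33 CPM in Vehicle; 4 of the 5 Rebound libraries were above every Vehicle library and the fifth, at 39.9 CPM, was within their range (log2 fold change 1.93 with SE 0.973, edgeR adjusted p = 0.369). Without Rebound mouse 49827 and Endpoint mouse 49843, a setting chosen after seeing the data, Sox4 was called (log2 fold change 1.83 with SE 0.444, edgeR adjusted p = 0.0288). Lpo was at 189, 31.1, 105, 34.2 and 433 CPM (log2 fold change 1.01, edgeR adjusted p = 0.542). None of the further progenitor, stem or immature neuron genes was called either. In the same libraries 2 of 8 pericyte and fibroblast markers were called higher in Rebound, their sum being 120 to 7952 CPM in Rebound and 12.9 to 151 CPM in Vehicle.

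Rebound TC libraries had higher levels of most of the 35 than Endpoint TC libraries. This comparison shares the Endpoint libraries with the one against Vehicle, so the 2 are not independent. By edgeR's quasi-likelihood test 30 of 35 rose and none fell, against 13.6% of all genes called higher and 11.5% called lower; the median log2 fold change was 2.90, against -0.04 over all genes. In 17 of the 35 the groups did not overlap, all of them higher in Rebound, against 6.84% of all genes higher and 6.15% lower. The members not called were Sox10, Nkx2-2, Sox4, Susd5 and Sox9, with log2 fold changes of 2.06, 2.01, 2.15, 1.99 and -0.43. Without Endpoint mouse 49843 the count was 33, all but Sox9 and Susd5, the median was 3.94, and Sox10 and Sox4 stood at 5.02 and 4.57.

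With the Rebound and Endpoint values given above, Lpo rose most, by 8.49 on the log2 scale (SE 0.959, edgeR adjusted p = 0.000347), followed over all libraries by Pou3f1 by 4.73 (SE 0.940, edgeR adjusted p = 0.0032). The order after Lpo rests on mouse 49843: without it Pou3f1 was at 4.75, behind Olig2 at 5.72, Pcdh15 at 5.67, Tnr at 5.16 and 4 others. Over all libraries, of the surface genes Nxph1 rose by 4.03 and Cspg4 by 3.79, of the lineage factors Olig2 by 3.54 and Olig1 by 2.26, and of the stem genes Nes by 3.10, Fabp7 by 2.07 and Sox2 by 1.51. Dcx rose by 3.65 and Sox11 by 3.37. The smallest rise that was called was that of Fyn, by 0.96 (edgeR adjusted p = 0.0432), with 275 ± 60.3 CPM in Rebound and 141 ± 76.0 CPM in Endpoint. Of the further lists, 12 of 20 progenitor genes rose. Of the 20 stem genes 3 rose and 2 fell (Sox1 by 4.25 and Id1 by 3.61). Of the 17 tested immature neuron genes 5 rose and 1 fell. Beside these rises, 10 of 12 myeloid, 7 of 9 choroid, 6 of 10 astrocyte and 2 of 10 mature neuron markers fell. Rises were called in 8 of 8 proliferation genes and 5 of 8 pericyte and fibroblast markers (list median 2.65 on the log2 scale). The part of these cell types was not tested.

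The balance between members was compared inside each TC library as log2 ratios of counts, each count plus 0.5, which do not depend on scaling between libraries. Over 4 ratios and 3 comparisons 12 exact two-sided permutation tests were made, and none had a Benjamini-Hochberg adjusted p under 0.05. The log2 ratio of Sox9 to Sox10, a stem and astrocyte factor over a lineage factor, was -3.61, -1.38, -1.52, -2.39 and -2.14 in Rebound libraries, -2.72 in the lowest and 6.60 in the highest Endpoint library, and -1.49, 0.45, -0.16, -1.21 and -0.58 in Vehicle libraries. In counts, Sox10 exceeded Sox9 in all Rebound libraries and in 4 of 5 Vehicle libraries. Sox9 exceeded Sox10 in counts in 5 of 6 Endpoint libraries, the exception being mouse 49843. The counts were not divided by exon length, 4135 bases for Sox9 and 3051 for Sox10, so a ratio near 0 does not rank the 2 levels. The difference was 2.97 between Endpoint and Vehicle (exact permutation p = 0.0649, adjusted 0.156), -1.61 between Rebound and Vehicle (exact permutation p = 0.0159, adjusted 0.0635) and -4.58 between Rebound and Endpoint (exact permutation p = 0.0216, adjusted 0.0649). Without mouse 49843 the first and the last were 3.99 and -5.60, both with an adjusted exact permutation p of 0.0317. That library was singled out by levels of these genes, so these p-values, and those without it below, are no independent support.

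The log2 ratio of Sox2 to Olig2 was 1.06, -0.26, 0.58, 2.18 and -0.74 in Rebound libraries, 1.67 in the lowest and 8.54 in the highest Endpoint library, and -0.66, -0.43, -0.41, -0.55 and -0.29 in Vehicle libraries. Every Endpoint library was above every Vehicle library, and the highest, that of mouse 49823, had an Olig2 count of 0, so its ratio depends on the 0.5 added. The difference was 4.01 between Endpoint and Vehicle (exact permutation p = 0.00433, adjusted 0.0519) and -2.98 between Rebound and Endpoint (exact permutation p = 0.0130, adjusted 0.0635). Without mouse 49843 they were 4.39 and -3.36, with adjusted exact permutation p-values of 0.0317 and 0.0381. Nes to Olig2 differed by 1.54 between Endpoint and Vehicle (exact permutation, adjusted p = 0.252), and Gpr17 to Cspg4, later over earlier progenitor genes, by 0.19 (exact permutation, adjusted p = 0.758).

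**Figure D4:**
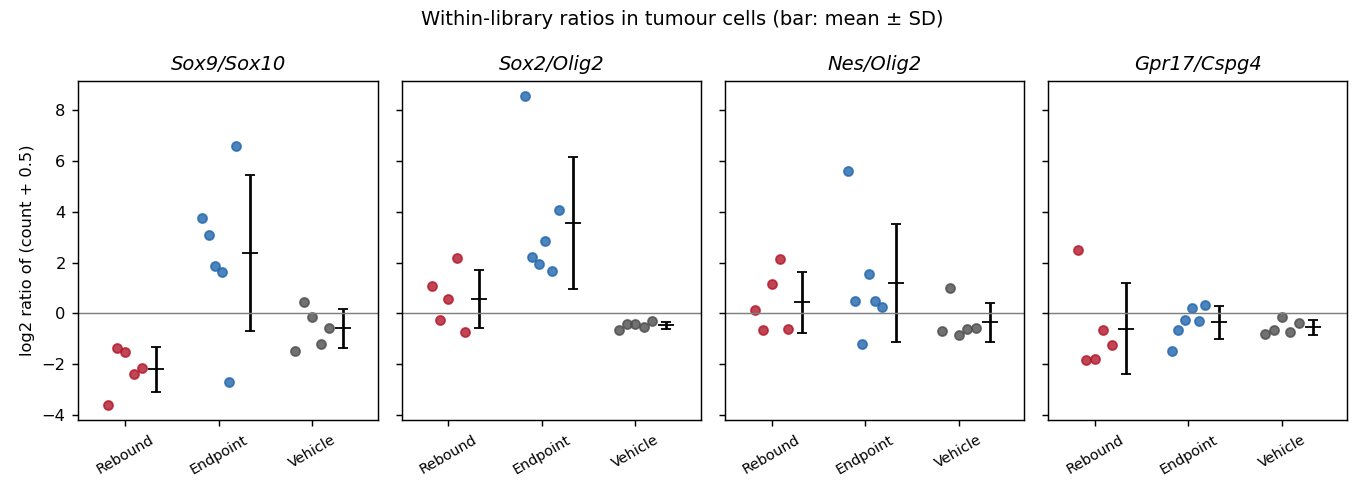
Log2 ratio of (count + 0.5) of 4 pairs of members within each TC library, for Rebound, Endpoint and Vehicle; points are libraries, and bars show the mean and SD. Endpoint libraries lie above Vehicle libraries for Sox2 to Olig2, while for Sox9 to Sox10 the library of mouse 49843, at -2.72, lies below the Vehicle points.

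In the macrophage sort most of these genes were a trace of their level in TC libraries. Set against TC in a joint fit of all 32 libraries, the median member stood in TAM at 3.46% of its TC mean in Rebound, 5.36% in Endpoint and 0.951% in Vehicle. Without TC mouse 49843 the Endpoint median was 9.98%. By edgeR's quasi-likelihood test 35 of 35 were lower in TAM than in TC in Rebound, 31 in Endpoint and 33 in Vehicle, against 27.4%, 32.4% and 29.2% of all 15668 genes tested, and none was higher, against 20.4%, 18.7% and 25.6% of all genes. The sorts did not overlap in 33 members in Rebound, 24 in Endpoint and 33 in Vehicle, all lower in TAM, against 20.3%, 17.4% and 21% of all genes. Without TC mouse 49843, which shares the fit, 34 were called in Vehicle (Sox4 added, edgeR adjusted p = 0.0331), and in Endpoint 31 were lower and 2 higher. The members closest to their TC level in Rebound were Fyn at 29.4%, Cspg4 at 18.4% and Gpr17 at 12.1%, with log2 fold changes of -1.77, -2.44 and -3.04. In Vehicle, Sox4 stood at 48.5%, Susd5 at 40.5% and Cspg4 at 9.96%; Sox4 and Susd5 were not called (edgeR adjusted p = 0.240 and 0.490).

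The widest gaps between the sorts were those of Lpo in Rebound, at 1.14 ± 1.49 CPM in TAM and 130 ± 136 CPM in TC (log2 fold change -6.79, edgeR adjusted p = 2.52e-05), and Pcdh15, with -6.48. In Endpoint the order rested on TC mouse 49843: Sox10 averaged 0.720 ± 0.620 CPM in TAM and 47.1 ± 100 CPM in TC, but 6.12 ± 3.52 CPM in the 5 TC libraries without it. Matn4 was at -6.24 with that library and at -4.91 without it. In Vehicle they were Nkx2-2, with 0.0697 ± 0.0769 CPM in TAM and 17.8 ± 4.55 CPM in TC (log2 fold change -7.92, edgeR adjusted p = 3.69e-05), and Pou3f1, with -7.65. Nes in Endpoint ran the other way, at 14.2 ± 8.46 CPM in TAM and 7.70 ± 14.0 CPM in TC (log2 fold change 0.94 with SE 0.726, edgeR adjusted p = 0.290). With the mouse as a block, since 15 mice gave both sorts, it was called higher in TAM (log2 fold change 2.11 with SE 0.591, edgeR adjusted p = 0.00813), and the Endpoint count became 31 lower and 1 higher. Lpo in Endpoint, at 102% of its TC mean, and Susd5 and Sox4 were not called there; without TC mouse 49843 Sox4 and Nes were called higher in TAM (log2 fold changes 1.22 and 2.96, edgeR adjusted p = 0.0150 and 0.000323).

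**Figure D5:**
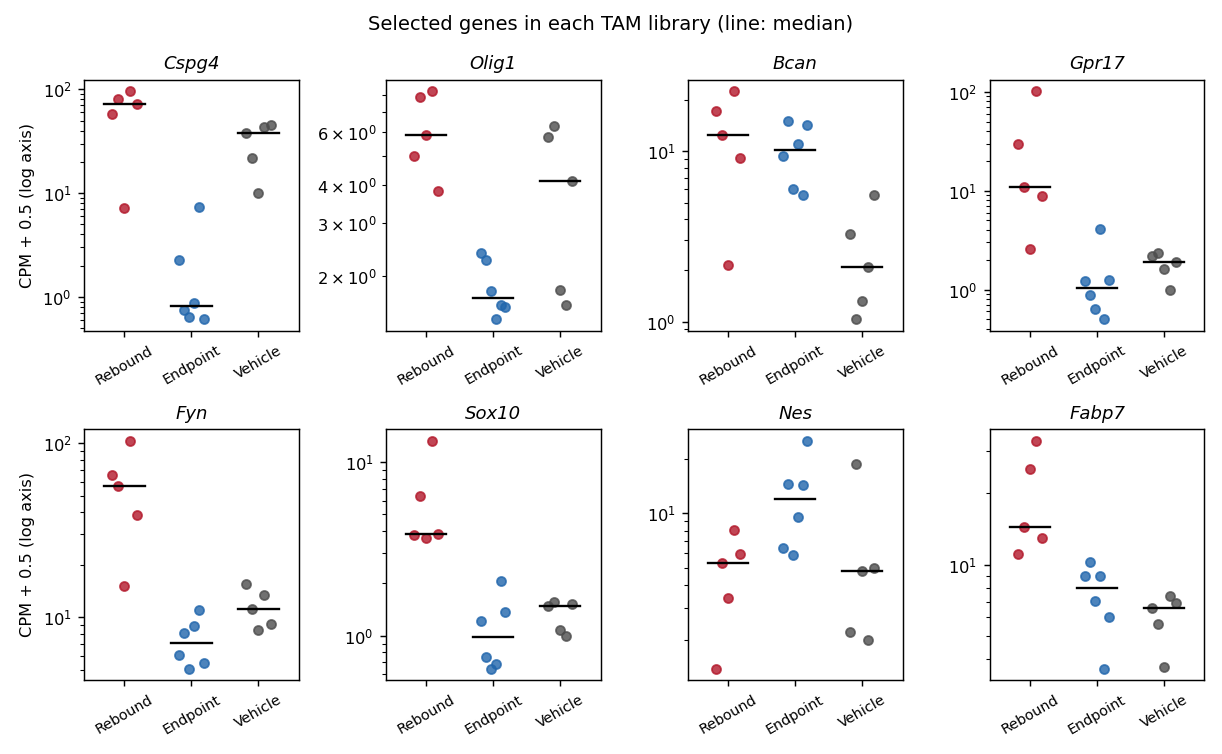
CPM + 0.5 on a log axis for 8 of the 35 genes in TAM libraries, with Rebound left, Endpoint in the middle and Vehicle right; points are libraries and lines are group medians. Cspg4 is low in Endpoint, Bcan is low in Vehicle, and Gpr17, Fyn and Sox10 are high in Rebound, with mouse 49834 the highest point of these 3.

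Endpoint TAM libraries differed from Vehicle TAM libraries in few members. Of the 29 tested, 2 fell and 1 rose by edgeR's quasi-likelihood test, against 19.3% of all 13315 genes called lower and 13.7% higher, so the share of members called was under the background. The groups did not overlap in 1 member that was lower and 2 that were higher, against 11% and 8.39% of all genes. Olig2, Nkx2-2, Matn4, Pou3f1, Lpo and Susd5 had too few counts to be tested. Cspg4 was at 0.108, 0.314 and 6.92 CPM in the lowest, median and highest Endpoint library, against 37.8, 21.3, 9.45, 43.1 and 44.9 CPM in the Vehicle libraries. All Endpoint libraries were below all Vehicle libraries, the highest being mouse 49843, and the log2 fold change was -4.32 (SE 0.926, edgeR adjusted p = 0.00252). Olig1 fell by 1.34 (SE 0.444, edgeR adjusted p = 0.0263), with 1.34 ± 0.394 CPM in Endpoint and 3.43 ± 2.19 CPM in Vehicle; the call was lost in 4 of 22 alternatives. Without the Rebound TAM library of mouse 49827, which shares the fit, 5 members were called.

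Bcan, the gene of brevican, rose in Endpoint TAM libraries while it fell in Endpoint TC libraries. In TAM it was at 5.03, 9.67 and 14.6 CPM in the lowest, median and highest Endpoint library, against 2.77, 0.533, 0.826, 1.60 and 5.02 CPM in Vehicle libraries. The groups touched without overlapping, and the log2 fold change was 2.18 (SE 0.593, edgeR adjusted p = 0.00885). The difference between the TAM and the TC change was 3.34 on the log2 scale (SE 0.728, edgeR adjusted p = 0.0015 for the interaction). This difference was examined only for members called in both sorts with opposite signs, which Bcan alone was. Those calls rest on the same libraries, so the interaction p-value is no independent support. Over the 35 members the same difference was above 0 in 31, with a median of 2.43, against -0.16 over all genes tested. A difference in this direction is therefore not particular to Bcan. Between Endpoint and Vehicle TAM libraries 7 of 10 astrocyte, 5 of 9 mature neuron and 3 of 10 myelin markers were called higher, and 2 myelin markers lower. The 10 astrocyte markers summed to 1552 to 2656 CPM in Endpoint and 1486 to 2629 CPM in Vehicle, most of it Slc1a3; the other 9 summed to 319 to 703 CPM in Endpoint and 122 to 232 CPM in Vehicle, without overlap; their part in the Bcan values was not tested.

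Rebound TAM libraries had more of the members than Vehicle TAM libraries. Of the 29 tested, 15 rose and none fell, against 7% of all genes called higher and 7.73% called lower, and in 10, all higher, the groups did not overlap, against 4.15% of all genes higher and 5.31% lower. Those that rose were 2 of 5 tested lineage factors, 8 of 12 surface genes, Fyn, 3 of 7 stem genes and 1 of 4 immature neuron genes. Gpr17 was at 29.5, 10.3, 2.06, 101 and 8.33 CPM in the Rebound libraries of mice 49041, 49059, 49827, 49834 and 49849, against 1.69, 1.87, 1.11, 0.498 and 1.41 CPM in Vehicle libraries. Every Rebound library was above every Vehicle library, with mouse 49834 far above the rest, and the log2 fold change was 4.53 (SE 1.05, edgeR adjusted p = 0.0111). Nxph1 had the next largest rise, 3.37 (SE 1.03, edgeR adjusted p = 0.0341), on 2.63, 2.699, 1.10, 5.15 and 0.666 CPM in Rebound libraries and 0.205, 0.0889, 0.108, 0.0356 and 0.729 CPM in Vehicle libraries. Its levels were near the lower end of what was counted, and Rebound mouse 49849 and Vehicle mouse 64247 overlapped.

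Fyn was at 65.3, 56.1, 14.6, 103 and 38.0 CPM in Rebound TAM libraries, against 15.02, 10.7, 7.94, 13.0 and 8.66 CPM in Vehicle TAM libraries. All Rebound libraries but that of mouse 49827 were above the Vehicle range (log2 fold change 2.32 with SE 0.382, edgeR adjusted p = 0.00114). Sox10 was at 3.29, 5.87, 3.16, 12.8 and 3.33 CPM in Rebound and 0.974, 1.07, 0.575, 0.498 and 1.03 CPM in Vehicle, without overlap (log2 fold change 2.77 with SE 0.630, edgeR adjusted p = 0.0077). Ptprz1, at 24.6, 24.3, 9.63, 43.5 and 23.2 CPM in Rebound and 3.79, 6.53, 5.42, 4.48 and 5.40 CPM in Vehicle, rose by 2.29 without overlap (SE 0.498, edgeR adjusted p = 0.00642).

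Among the stem genes in TAM libraries, Fabp7 was at 10.6, 14.0, 24.8, 32.7 and 12.4 CPM in Rebound and 6.10, 5.11, 3.20, 6.90 and 6.43 CPM in Vehicle. These groups did not overlap either, and it rose by 1.77 (SE 0.353, edgeR adjusted p = 0.00383). Sox2 was at 1.97, 2.35, 1.65, 4.25 and 1.44 CPM in Rebound and 0.461, 1.29, 0.1796, 0.178 and 0.557 CPM in Vehicle, again without overlap (log2 fold change 2.12 with SE 0.629, edgeR adjusted p = 0.0297; the call was lost in 7 alternatives). Nes averaged 4.32 ± 2.56 CPM in Rebound and 6.01 ± 6.89 CPM in Vehicle, where mouse 54363 was highest at 18.1 CPM, and was not called (log2 fold change -0.47, edgeR adjusted p = 0.665). Sox9, Sox11 and Dcx were not called either, with log2 fold changes of 0.39, 2.01 and 1.31, while the tubulin gene Tubb3 rose by 2.47 (edgeR adjusted p = 0.000274). Olig2, which was not tested, was at 0.413 to 1.55 CPM in Rebound and 0.249 to 0.889 CPM in Vehicle. Cspg4 was not called, at 62.3 ± 34.1 CPM in Rebound and 31.3 ± 15.4 CPM in Vehicle (log2 fold change 0.99, edgeR adjusted p = 0.459).

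Mouse 49834 was highest of the Rebound TAM libraries in 26 of the 35 genes, and without it 10 members rose against Vehicle: Sox10, Ptprz1, Ncan, Bcan, Gpr17, Fabp7, Tubb3, Fyn, Lhfpl3 and Scrg1. In the same comparison 7 of 10 myelin markers were called higher, their sum being 855 to 3243 CPM in Rebound and 372 to 746 CPM in Vehicle TAM libraries, while the myeloid markers summed to 25670 to 47109 CPM in Rebound and 46230 to 77469 CPM in Vehicle. Also called higher were 5 of 6 tested pericyte and fibroblast markers (list median 4.51 on the log2 scale), 5 of 7 T and NK markers (3.54) and 4 of 10 astrocyte markers, with 1 astrocyte marker, 3 of 12 myeloid markers and 6 of 8 proliferation genes lower. The part of RNA from tumour cells or from any of these cell types in the TAM values was not tested.

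Against Endpoint TAM libraries, 14 of the 29 members tested rose in Rebound TAM libraries and none fell, against 11.7% of all genes called higher and 5.9% called lower, and in 7, all higher, the groups did not overlap, against 6.95% of all genes higher and 4.87% lower. Cspg4, with the values given above for Endpoint, was at 56.9, 81.0, 6.74, 95.5 and 71.4 CPM in Rebound. All Rebound libraries but that of mouse 49827 were above every Endpoint library, and the log2 fold change was 5.32 (SE 0.957, edgeR adjusted p = 0.00175). Gpr17 rose by 5.09 (SE 1.02, edgeR adjusted p = 0.00329) and Fyn by 2.998 (SE 0.369, edgeR adjusted p = 5.49e-05). Without mouse 49834 the count was 10. In the same comparison 5 of 6 pericyte and fibroblast markers (list median 4.53 on the log2 scale), 4 of 6 endothelial markers (3.78), 5 of 10 myelin markers and 3 of 7 T and NK markers were called higher, and 4 of 10 astrocyte markers and 7 of 8 proliferation genes lower; their part was not tested.

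Besides Gpr17, some members share exon bases with a gene on the opposite strand: Lhfpl3, Matn4 and Sox8 with genes in the count table, and Nkx2-2, Olig1, Pou3f1, Sox4, Sox5 and Tnr with annotated RNAs outside it. Their counts are uncertain to that extent.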

How the data were processed

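Bulk RNA-seq of 32 libraries was analysed: TC and TAM, each in 3 stages. The authors deposited a table of raw counts of 23337 genes per library, and the submitters' processing notes name STAR 2.3.0e, SAMtools and the build mm10; for the counting tool, its annotation and its use of strand, nothing is stated in the sources used here. No column was left out.

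From these counts, edgeR 4.0.16 (R 4.3.3) fitted quasi-likelihood models with TMM scaling, its expression filter and robust dispersion: the 16 TC libraries in 1 fit, the 16 TAM libraries in another, and all 32 together for TAM against TC. P-values were adjusted by Benjamini-Hochberg over all genes tested, with a threshold of 0.05. CPM are TMM-scaled, and standard errors are the log2 fold change divided by the root of F. Ratios used counts plus 0.5. Coordinates are GENCODE's on GRCm38. The fits were tested on simulated data with the same spread in every gene, changes only in genes above a set level, and no outlying library. These data differ in all of this, so that test does not show how the fits performed here.

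Stages came from the labels. Alternatives were other scalings, no filter, halved counts where all counts are even, 2-group fits, DESeq2 1.42.0, leaving out each library, and the mouse as a block for TAM against TC. The labels give the same mouse number to both sorts of 15 mice, and deviations of the paired libraries correlated at r 0.011 to 0.337. No 2 libraries of a group agreed within sampling noise (chi-square per degree of freedom of at least 21.0 over 70 pairs). Intervals and errors cover the spread between these mice. Members, roles and lists were chosen with earlier results of these data known. Library values, for the 6 Endpoint libraries as lowest, median and highest, are given in TC for 11 members fixed by name and those with the largest called changes, and in TAM for most of these; others were named after their values were seen.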

Additional observations from a re-analysis of the deposited data

Results flagged for a closer look

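Values in every library of 11 of the 35 genes were screened in the 6 groups, 66 sets in all, for a highest or lowest library that lies far from the nearest other library of its group relative to the group's range. For independent, normally spread values chance alone marks about 1 in 20 sets, and 20 were marked. The sets share libraries and the CPM were not transformed, so the 20 cannot be weighed against that rate.

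Of these 10 were the Endpoint TC library of mouse 49843, each time as the highest of its group: Olig2 at 31.8 CPM, Sox10 at 311 CPM, Cspg4 at 141 CPM, Gpr17 at 115 CPM, Ptprz1 at 714 CPM, Sox2 at 102 CPM, Nes at 44.5 CPM, Fabp7 at 567 CPM, Sox11 at 101 CPM and Dcx at 33.9 CPM. The same mouse's TAM library was the highest of Endpoint TAM in Cspg4, at 6.92 CPM.

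In TC libraries, Sox9 stood apart at 171 CPM in Endpoint mouse 49845, Ptprz1 was lowest at 661 CPM in Rebound mouse 49827, and Nes was highest at 189.6 CPM in Vehicle mouse 54363. In TAM libraries, Sox10 at 12.8 CPM and Gpr17 at 101 CPM were highest in Rebound mouse 49834. Olig2 at 0.505 CPM was highest in Endpoint mouse 49825 and Gpr17 at 3.56 CPM in Endpoint mouse 49831. Nes at 18.1 CPM was highest in Vehicle mouse 54363, whose TC library was also its group's highest in Nes, and Dcx at 2.14 CPM in Vehicle mouse 64247.

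The change of Bcan between Endpoint and Vehicle differed between the sorts, higher in TAM and lower in TC, by 3.34 on the log2 scale (SE 0.728, edgeR adjusted p = 0.0015). Bcan was examined because it had been called in both sorts with opposite signs, so this p-value is no independent support. The same difference was above 0 in 31 of the 35 members, with a median of 2.43.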

How the results depend on the processing

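Leaving out each library in turn, members called ranged from 23 to 33 in TC Endpoint against Vehicle, 0 to 0 in Rebound against Vehicle and 27 to 33 in Rebound against Endpoint; in TAM they ranged from 2 to 5, 10 to 16 and 10 to 17, and in TAM against TC from 33 to 35 in Rebound, 31 to 33 in Endpoint and 33 to 34 in Vehicle. The Bcan interaction ranged from 2.997 to 4.03. For Endpoint against Vehicle, Rebound against Vehicle and Rebound against Endpoint, Sox9/Sox10 ranged from 2.12 to 3.99, -1.83 to -1.26 and -5.60 to -3.73, Sox2/Olig2 from 3.01 to 4.39, 0.63 to 1.36 and -3.39 to -1.99, Nes/Olig2 from 0.66 to 2.03, 0.35 to 1.12 and -1.24 to 0.12, and Gpr17/Cspg4 from 0.05 to 0.42, -0.83 to 0.25 and -1.02 to 0.056.

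The count in TAM Endpoint against Vehicle was 6 with upper-quartile scaling (4 higher, 2 lower) and 5 with DESeq2, and the count in TC Rebound against Vehicle was 1 without Endpoint 49843 and Rebound 49827 together, chosen after seeing the data. Reversed values were those of Sox8 in TAM Endpoint against Vehicle without Vehicle 54359 (0.31, in a range from -2.47), Sox4 in Endpoint TAM against TC without TC 49843 (1.22, in a range from -1.56) and with the mouse as a block (0.45), Nes/Olig2 in Rebound against Endpoint without Endpoint 49823 (0.12), and Gpr17/Cspg4 in Rebound against Vehicle without Rebound 49059 (0.25), 49692 (0.24) or 49849 (0.10) or Vehicle 57098 (0.047) and in Rebound against Endpoint without Rebound 49059 (0.056) or 49692 (0.051); the cause was not tested. With the replicate block the counts in TAM against TC were 35 in Rebound, 32 in Endpoint and 33 in Vehicle, the Bcan interaction was 3.67, and Nes in Endpoint was called. Of the gene-level values under alternatives, 6609 kept direction and side of the threshold, 99 lost the call, 38 gained it and 3 reversed. Many of these alternatives left out a library of neither group compared, which bears on the result only through the shared fit. The 6609 are therefore no measure of robustness. Over all genes, Rebound against Vehicle in TC called 11, against 601 with DESeq2, 25 with halved counts, 0 with 2 groups in the fit and 675 without both libraries; in TAM it called 1961, against 999 with 2 groups. Members with few counts in TAM are limited by depth.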
